A study of Homo sapiens with 21 samples.

Results

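The insulin and IGF signalling genes described here are 10 genes chosen by symbol: the ligand IGF2, the receptors INSR, IGF1R and IGF2R, the docking proteins IRS1 and IRS2, and the IGF-binding proteins IGFBP1, IGFBP2, IGFBP3 and IGFBP4. All 10 were found among the 24843 genes of the count table that carry an Ensembl ID with a symbol. RNA was sequenced from HepG2, an established human liver cancer line, exposed for 6 h to 7 concentrations of caffeine (0, 0.01, 0.1, 1, 10, 100 and 1000 µM), with 3 biological replicates each and so 21 libraries. What every group shared, the 0 µM controls included, was a switch to medium without serum at the start of the exposure, so the growth factors of serum had been withdrawn from the controls as well. The series' design text gives coumarin, a different compound, for the control, whereas every sample label gives caffeine, and the labels were followed. A single cell line was used, and the sources do not say how the replicate cultures were spread over days.

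Insulin binds its receptor INSR, and IGF1 and IGF2 bind IGF1R. Both receptors are tyrosine kinases that phosphorylate the docking proteins IRS1 and IRS2, which recruit PI3-kinase and so activate the kinase AKT, while IGF2R is a scavenger that carries IGF2 to lysosomes. IGF-binding proteins hold IGFs away from IGF1R. In liver, IGFBP1 is known as a secreted binding protein whose gene is repressed by insulin through AKT and FOXO1 and induced in fasting and stress. Caffeine, a methylxanthine, antagonises adenosine receptors and, at high concentrations, inhibits phosphodiesterases.

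Libraries held between 28043623 and 40827833 counts (median 32497612). The share of counts from mitochondrial genes ran from 4.95% to 14.2%, with the highest values in 1 µM replicate 3 (14.2%), 0.01 µM replicate 1 (11.7%) and 10 µM replicate 1 (11.3%). All 8 hepatocyte markers listed were detected, with a summed level of 16519 to 22525 CPM (the usual normalised read count, here after TMM scaling, and the scale of every level below unless a length is named). The summed level of 5 fibroblast markers was 44.6 to 80.4 CPM with COL1A2 at 0 throughout, that of 3 endothelial markers 0.0322 to 0.394 CPM, and that of 4 immune markers 54.0 to 109 CPM with PTPRC at 0 or 1 count. Changes below are log2 fold changes with their standard error (SE) from edgeR's quasi-likelihood test, and a gene is called when its Benjamini-Hochberg adjusted p over all 17468 genes tested is under 0.05. All doses share the same 3 control libraries. In these bulk samples a change in the RNA per cell and a change in the share of cells that carry it cannot be told apart.

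At 0 µM the members fell into 3 tiers of level per kilobase of exon, computed with GENCODE v29 lengths. IGF2 stood at 26.5 ± 4.05 CPM per kb (SD, n = 3), IGFBP1 at 26.3 ± 4.13 and IGFBP4 at 25.9 ± 2.20, and these 3 neighbours did not differ beyond their spread. IGF2R followed at 19.9 ± 1.33 CPM per kb. The kinase receptors and IRS1 lay well below, with IGF1R at 5.16 ± 0.367, IRS1 at 5.01 ± 0.479 and INSR at 4.52 ± 0.288 CPM per kb, again without a gap between neighbours beyond their spread. The last tier held IGFBP2 at 0.144 ± 0.0757, IRS2 at 0.0439 ± 0.0142 and IGFBP3 at 0.00702 ± 0.00704 CPM per kb. IRS1 held 1367 to 1711 counts in each control library and IRS2 8 to 15, low but above the 3 counts that a count of 0 allows. The place of IGF2 is that of its own row, which shares exons with 2 other rows, holds 4.82% to 11.4% of the counts of the 3 and is uncertain on its own. At 1000 µM IGFBP1 rose to the head of the order at 181 ± 3.50 CPM per kb, ahead of IGF2R at 28.9 ± 0.504, IGF2 at 25.8 ± 11.7 and IGFBP4 at 23.4 ± 1.07.

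**Figure D1:**
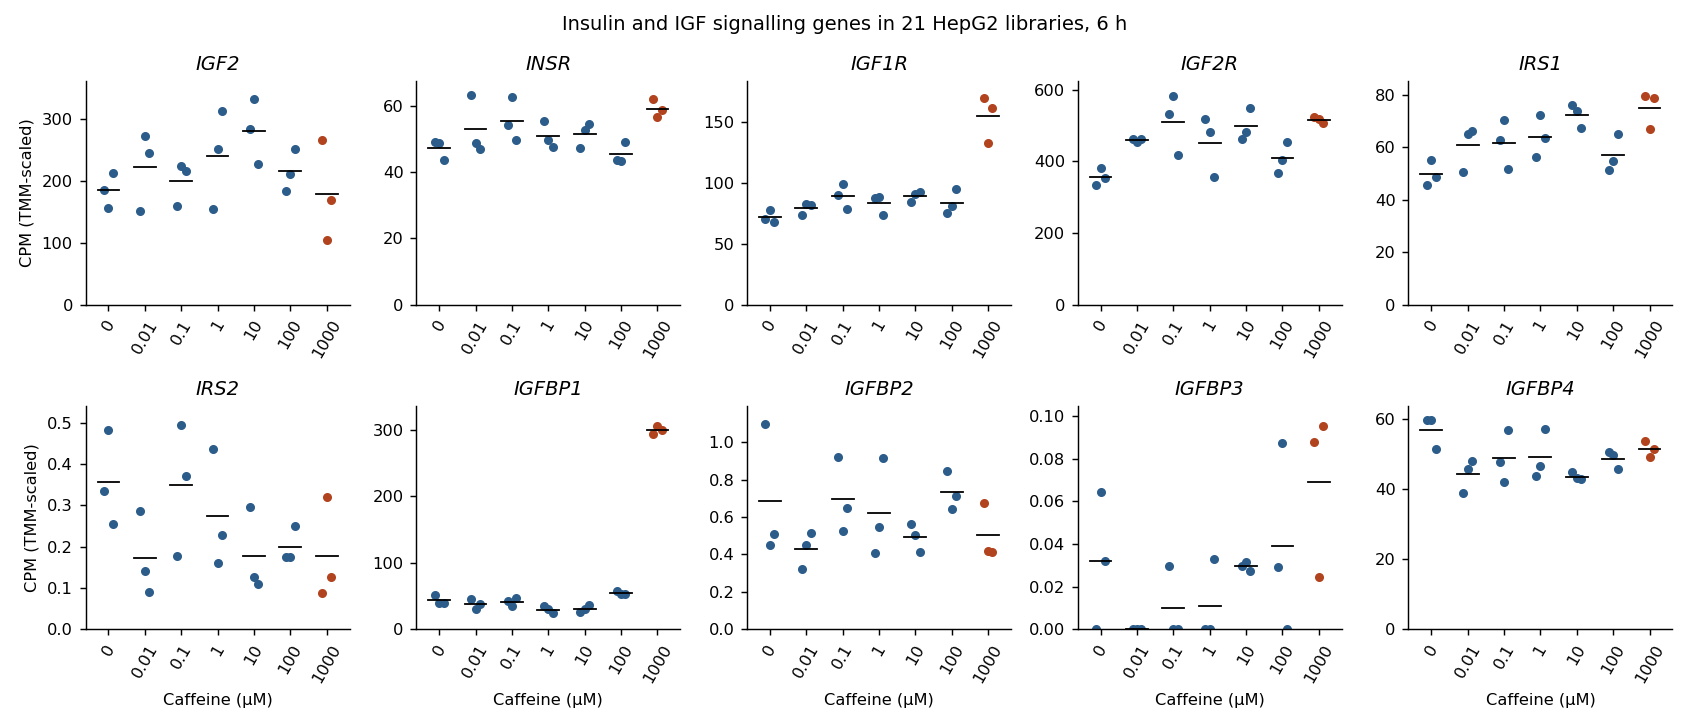
Level of each of the 10 members in CPM (y axis, linear, from 0, a separate scale per gene) at each caffeine dose in µM (x axis). Points are the 3 libraries of a dose, bars their mean, and 1000 µM is in red. IGFBP1 at 1000 µM (294 to 306 CPM) and IGF1R at 1000 µM (133 to 170 CPM) lie above every library of the other doses, while IGF2 at 1000 µM (104 to 266 CPM) overlaps the other doses.

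At 1000 µM against 0 µM, 5 of the 9 members that could be tested were higher (IGFBP1, IGF1R, IRS1, IGF2R and INSR), none was lower, and 4 did not pass the threshold (IGF2, IRS2, IGFBP2 and IGFBP4). IGFBP3 held 0 to 3 counts per library and was not tested. Of all genes tested 41.2% were called in this comparison, made up of 20.6% higher and 20.6% lower. The median log2 change of the 9 tested members was 0.33, against -0.03 over all genes tested. In each of the 5 called members the 3 libraries at 1000 µM lay above all 3 controls, a separation that 25.9% of all genes tested showed upwards and 53.2% in either direction.

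Marker genes moved at the same dose. Of the 8 hepatocyte markers 3 fell at 1000 µM and none rose, where 20.6% of all genes were called lower and 20.6% higher. AFP, the fetal serum protein of liver, changed by -0.69 ± 0.10 on the log2 scale (adjusted p = 4.5e-05), APOA1 by -1.04 ± 0.21 (adjusted p = 7.7e-04) and FGB by -0.33 ± 0.08 (adjusted p = 0.00362), while ALB changed by -0.07 ± 0.15 (adjusted p = 0.739). The summed level of the 8 was 20012 to 22525 CPM at 0 µM and 16519 to 19278 CPM at 1000 µM. That sum was not low at 1000 µM alone. It lay below every control at 0.01 µM (18029 to 18633 CPM), 1 µM, 10 µM (17206 to 18946 CPM) and 100 µM, and overlapped the controls at 0.1 µM. Of the fibroblast markers 2 could be tested. ACTA2, a smooth muscle actin, fell from 72.9, 69.4 and 66.3 CPM to 42.0, 35.8 and 36.0 CPM, and PDGFRB, a growth factor receptor, rose from 4.11, 4.51 and 4.72 CPM to 8.30, 8.84 and 8.62 CPM. Both were called (adjusted p = 4.2e-06 and 7.6e-07), and the summed level of the list was 71.1 to 77.0 CPM at 0 µM and 44.6 to 50.3 CPM at 1000 µM. Of the immune markers 2 could be tested, and CD14 fell by 1.09 ± 0.26 on the log2 scale (adjusted p = 0.00274) while CD68 did not pass. The summed level of that list was 72.7 to 85.8 CPM at 0 µM and 54.0 to 77.1 CPM at 1000 µM. No endothelial marker passed the filter on low counts. The part of these shifts in the members' changes was not tested.

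IGFBP1 had the largest response of the members. Its controls stood at 51.3, 39.0 and 40.0 CPM, and the libraries at 1000 µM at 294, 306 and 300 CPM. No library below 1000 µM exceeded 57.5 CPM, so the 1000 µM libraries stood apart from all others. The rise was 6.90-fold, or 2.79 ± 0.17 on the log2 scale (adjusted p = 4.6e-09), and the counts behind it were 9458 to 12416 per library at 1000 µM and 1213 to 1534 at 0 µM. The gene lies at chr7:45888357-45893668 on the plus strand of GRCh38, and no other annotated exon of GENCODE v29 overlaps its exons.

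Below 1000 µM the level of IGFBP1 did not climb steadily with dose. It was 45.5, 30.0 and 37.6 CPM at 0.01 µM and 42.3, 34.4 and 46.6 CPM at 0.1 µM, both overlapping the controls. At 1 µM it was 34.6, 29.8 and 24.1 CPM, below all 3 controls, with a log2 change of -0.56 ± 0.16 that did not pass (adjusted p = 0.0859). At 10 µM it was 26.0, 29.8 and 36.5 CPM, again below all controls, and here the fall of -0.50 ± 0.16 passed (adjusted p = 0.0377). At 100 µM the libraries stood at 57.5, 53.4 and 52.6 CPM, just above the controls, and the log2 change of 0.33 ± 0.16 did not pass (adjusted p = 0.215). Of the 21 pairs of doses IGFBP1 was called in 8, namely 1000 µM against each lower dose, 10 µM against 0 µM, and 100 µM against 1 µM, where the log2 change was 0.88 ± 0.16 (adjusted p = 0.0381) in a comparison that called 0.143% of genes. The comparisons of 100 µM with 0.01, 0.1 and 10 µM called 0.132%, 0.258% and 0.0515% of genes and no member. The fall at 10 µM was lost with the mitochondrial share as a covariate, and without 0 µM replicates 1 or 2 or 10 µM replicates 1 or 2.

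IGF1R, the receptor for IGF1 and IGF2, was the other member that stood apart at the top dose. Its level was 70.6, 77.6 and 67.6 CPM at 0 µM and 170, 133 and 162 CPM at 1000 µM. The highest of the 18 libraries below 1000 µM held 99.2 CPM, so the groups did not overlap. The rise was 2.15-fold, or 1.11 ± 0.12 on the log2 scale (adjusted p = 1.6e-06). Between 0.01 and 100 µM the group means ran from 79.3 ± 5.22 to 89.4 ± 10.2 CPM (SD, n = 3), and no dose in that range was called against 0 µM, the nearest being 10 µM with 0.31 ± 0.11 (adjusted p = 0.0586). That change was called by DESeq2 (0.32, adjusted p = 0.0287) and by edgeR on the 6 libraries of 0 and 10 µM alone (0.32, adjusted p = 0.0164).

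The gene IGF1R spans chr15:98648539-98964530 on the plus strand. Promoter windows of RefSeq (GRCh38.p14), 250 bases upstream of the start, were read for the 8 members that have an entry, 10 windows in all, and searched on both strands for CACGTG (the E-box), GCGTG (the core bound by the aryl hydrocarbon receptor with ARNT), TGACGTCA (the cAMP response element), GTAAACA (a FOXO site) and CAAAACA (the core of the insulin response element). IGFBP1 and IGF2 had no entry, so their promoters were not searched. None of these letters contains another. The windows of IGF1R and IGF2R, both called at 1000 µM, were picked to be shown for their number of matches. Among the 4 called members with an entry theirs held the most matches, and each E-box or GCGTG match on either strand is in capitals:
IGF1R: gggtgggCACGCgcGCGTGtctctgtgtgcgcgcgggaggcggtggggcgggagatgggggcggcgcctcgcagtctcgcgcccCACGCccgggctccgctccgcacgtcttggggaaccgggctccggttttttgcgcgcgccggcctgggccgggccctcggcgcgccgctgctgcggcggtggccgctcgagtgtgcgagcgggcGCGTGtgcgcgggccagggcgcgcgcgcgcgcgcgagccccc
IGF2R: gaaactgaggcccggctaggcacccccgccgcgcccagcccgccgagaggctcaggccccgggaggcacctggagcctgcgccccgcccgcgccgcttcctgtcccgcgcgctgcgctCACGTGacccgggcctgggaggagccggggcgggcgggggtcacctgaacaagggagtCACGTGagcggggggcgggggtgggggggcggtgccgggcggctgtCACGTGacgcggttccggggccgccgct
The window of IGF1R, chr15:98648289-98648538 on the plus strand, was 81.2% G and C and held 4 matches to GCGTG and none to the E-box. That of IGF2R, chr6:159968832-159969081 on the plus strand, was 79.2% G and C and held 3 matches to the E-box and none to GCGTG. Among 34788 windows of this length, with a median of 58% G and C, GCGTG occurred in 32.2% and at least 4 times in 1.11%, and CACGTG occurred in 6.31% and at least 3 times in 0.0776%. The cut-offs of 4 and 3 are the highest numbers in the windows of the 4 called members, so these shares test nothing. The windows compared were not matched for G and C. IRS1 held 1 GCGTG match and INSR no match to these 2 motifs, and none of the 4 windows held TGACGTCA, GTAAACA or CAAAACA, which occurred in 1.64%, 2.98% and 4.31% of all windows. Among the members not called at 1000 µM, the window of IGFBP3 held 3 GCGTG matches, 1 of the 3 windows of IGFBP2 held 1, that of IRS2 held 1 CAAAACA match, and that of IGFBP4 held none. These are matches of letters, and binding was not measured.

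IGF2R, the IGF2 scavenger, was called higher at 10 and at 1000 µM against 0 µM. Its level was 333, 380 and 353 CPM at 0 µM and 523, 518 and 506 CPM at 1000 µM. The 1000 µM libraries lay above all controls and within the range of the libraries at 0.1 to 10 µM, which ran from 357 to 582 CPM. Against 0 µM the log2 change was 0.54 ± 0.13 at 1000 µM (adjusted p = 0.00316) and 0.48 ± 0.13 at 10 µM (adjusted p = 0.0147). At 0.1 µM it was 0.52 ± 0.13, yet that dose called 0% of genes and the value did not pass (adjusted p = 0.114). At 1000 µM against 0.01, 0.1 and 1 µM together, a comparison that called 30.1% of genes, the log2 change of IGF2R was 0.12 ± 0.10 (adjusted p = 0.397).

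IRS1, the docking protein of both kinase receptors, followed a similar course. The 3 controls stood at 45.7, 55.1 and 48.8 CPM, the 10 µM libraries at 76.2, 73.8 and 67.5 CPM and the 1000 µM libraries at 79.6, 67.0 and 78.7 CPM. The libraries of both doses lay above all controls and overlapped each other. The log2 change was 0.54 ± 0.13 at 10 µM (adjusted p = 0.0106) and 0.59 ± 0.13 at 1000 µM (adjusted p = 0.00202). At 100 µM, between those doses, the libraries held 51.4, 55.0 and 65.0 CPM and overlapped the controls, with 0.20 ± 0.13 (adjusted p = 0.377). Against 0.01, 0.1 and 1 µM together the change at 1000 µM was 0.27 ± 0.11 (adjusted p = 0.0625).

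INSR, the insulin receptor, had the smallest called change at 1000 µM. Its level was 49.1, 48.9 and 43.8 CPM at 0 µM and 62.3, 56.7 and 58.9 CPM at 1000 µM. The top dose lay above the controls, while single libraries at 0.01 µM (63.4 CPM) and 0.1 µM (62.7 CPM) reached as high. The log2 change was 0.33 ± 0.11 (adjusted p = 0.0267), and it no longer passed without 0 µM replicate 3 (0.29, adjusted p = 0.0812), without 1000 µM replicate 1 (0.32, adjusted p = 0.0602) or without 1000 µM replicate 3 (0.33, adjusted p = 0.0606). Against 0.01, 0.1 and 1 µM together it was 0.16 ± 0.09 (adjusted p = 0.208).

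The lower doses set the 5 called members apart from each other. Each library of a dose was measured once, and the reference was changed in the same fit. IGF1R was called at 1000 µM against each of the 6 lower doses, with log2 changes of 0.79 to 1.11, and IGFBP1 likewise with 2.46 to 3.35. IRS1 and IGF2R were called at 1000 µM against 0 µM alone, and INSR against 0 µM and 100 µM. The shares of all genes called at 1000 µM were 18.5%, 24.3%, 22.3% and 18.4% against 0.01, 0.1, 1 and 10 µM. With 0.01, 0.1 and 1 µM together as the reference, IGFBP1 changed by 3.07 ± 0.12 (adjusted p = 2.4e-12) and IGF1R by 0.88 ± 0.09 (adjusted p = 7.6e-07), and no other member passed.

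**Figure D2:**
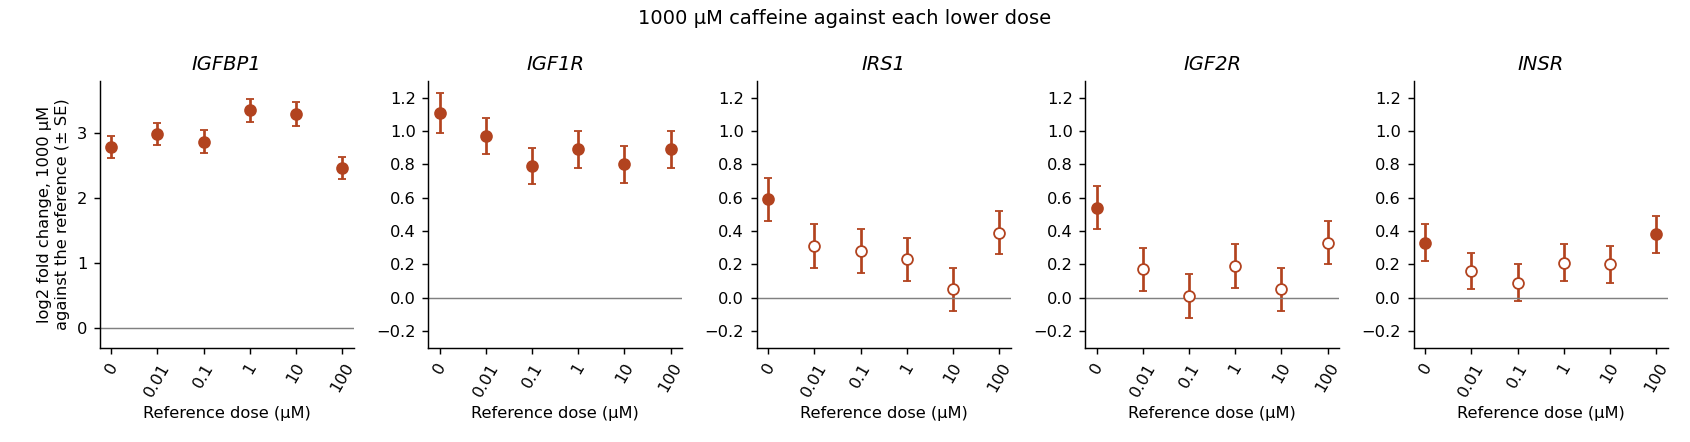
Log2 fold change at 1000 µM (y axis, points with bars of ± 1 SE, a separate scale for IGFBP1) against each lower dose in µM (x axis) for the 5 members called against 0 µM. Filled points have an adjusted p under 0.05. IGFBP1 and IGF1R are filled against all 6 references, INSR against 0 and 100 µM, and IRS1 and IGF2R against 0 µM alone.

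The comparison of 1000 µM with 100 µM shares no library with the controls and called 14.7% of all genes (8.15% higher and 6.55% lower). It called 3 of the 9 tested members, all as higher: IGFBP1 with 2.46 ± 0.17 (adjusted p = 4.4e-08), IGF1R with 0.89 ± 0.11 (adjusted p = 5.4e-05) and INSR with 0.38 ± 0.11 (adjusted p = 0.0284). IRS1 missed with 0.39 ± 0.13 (adjusted p = 0.0548) and IGF2R with 0.33 ± 0.13 (adjusted p = 0.0900). INSR was lost without 100 µM replicates 1 or 2 or 1000 µM replicates 1 or 3, which left 2 members called. IRS1 passed without 100 µM replicate 3 or without 1000 µM replicate 2.

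At 10 µM, 4 of 9 members were called where 22.0% of all genes were (11.3% higher and 10.7% lower): IRS1 and IGF2R as higher, and IGFBP1 and IGFBP4 as lower. Against 0.01, 0.1 and 1 µM, comparisons that each called 0% of genes, no member was called at 10 µM. The log2 changes there were 0.25, 0.23 and 0.18 for IRS1 and 0.12, -0.04 and 0.14 for IGF2R. For IGFBP1 they were -0.29, -0.42 and 0.06, and for IGFBP4 -0.02, -0.16 and -0.17. The 4 calls against 0 µM leaned on single libraries. None of the 4 passed without 0 µM replicate 1, 1 (IGF2R) passed without 10 µM replicate 1, and 2 (IRS1 and IGF2R) passed without 0 µM replicate 2 or without 10 µM replicate 2. IGFBP4 alone was lost without 10 µM replicate 3. DESeq2 called 5 members at this dose, IGF1R besides these 4, and edgeR on the 6 libraries of 0 and 10 µM alone called 6, with IGF1R and IGF2 added. No member was called at 0.01 µM, where 4.95% of all genes were, at 0.1 or 1 µM, where 0% were, or at 100 µM, where 6.02% were. At an unadjusted p under 0.05 the counts were 3 of 9 for each of 0.01, 0.1 and 1 µM, and 0 of 9 for 100 µM. DESeq2 called 2 members at 0.01 µM (IGFBP4 and IGF2R), 1 at 0.1 µM (IGF2R), 1 at 1 µM (IGFBP1) and 0 at 100 µM.

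Across the 7 groups together edgeR called 4 members, IGFBP1 (adjusted p = 5.9e-11), IGF1R (1.6e-05), IRS1 (0.0278) and IGF2R (0.0297), against 28.1% of all genes. Without 0 µM replicate 1, without 0 µM replicate 3 or without 1000 µM replicate 3, 2 members were called (IGFBP1 and IGF1R). A slope fitted on dose rank (0 for the control up to 6 for the top dose) was called for 3 members, all upwards, against 29.0% of all genes (14.5% upwards), with 0.40 ± 0.08 log2 units per step for IGFBP1, 0.13 ± 0.03 for IGF1R and 0.07 ± 0.02 for IRS1. The slope of IRS1 did not pass without 0 µM replicates 1 or 3 or 1000 µM replicates 1 or 3 (adjusted p = 0.0516 to 0.0695). Without the 3 libraries at 1000 µM neither test called any member, and the slopes were 0.02 per step for IGFBP1 (adjusted p = 0.790) and 0.04 for IGF1R (adjusted p = 0.178).

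The other binding proteins did not follow IGFBP1. IGFBP4, a secreted IGF-binding protein that the protease PAPP-A cleaves, stood at 59.7, 59.8 and 51.4 CPM at 0 µM and at 53.9, 49.2 and 51.5 CPM at 1000 µM, overlapping ranges with a log2 change of -0.14 ± 0.11 (adjusted p = 0.330). At 10 µM IGFBP4 held 44.9, 43.1 and 42.9 CPM, below all controls, and the fall of -0.38 ± 0.12 passed (adjusted p = 0.0248). IGFBP2 held 9 to 33 counts per library (0.322 to 1.10 CPM), and its log2 change at 1000 µM was -0.45 ± 0.37 (adjusted p = 0.342). IGFBP3, which lies beside IGFBP1 on chromosome 7 at chr7:45912245-45921874 on the opposite strand, had 0 counts in 9 libraries and at most 3 in the others. A count of 0 allows up to 3 counts, or 0.0735 to 0.107 CPM depending on the library, so changes of IGFBP3 within that range were not detectable. No library at any dose held more than 3 counts of it. IRS2, the second IRS docking protein, held 3 to 18 counts per library (0.0880 to 0.495 CPM), and its log2 change at 1000 µM was -0.95 ± 0.55 (adjusted p = 0.175). Without 1000 µM replicate 2 it was -1.69 and passed (adjusted p = 0.0487).

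IGF2, the growth factor of fetal liver that binds IGF1R and IGF2R, did not differ among the 7 groups beyond its spread among replicates (adjusted p = 0.464, edgeR). Its row held 185, 157 and 213 CPM at 0 µM and 266, 104 and 169 CPM at 1000 µM. The top dose spanned the controls on both sides, and the log2 change was -0.04 ± 0.30 (adjusted p = 0.926). At 10 µM the libraries held 284, 333 and 227 CPM, above all controls, with 0.60 ± 0.30 (adjusted p = 0.153). It was called by edgeR on the 6 libraries of 0 and 10 µM alone (0.61, adjusted p = 0.0148) and not by DESeq2 (0.61, adjusted p = 0.101).

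That row is 1 of 3 that share exons on the minus strand of chromosome 11. Besides IGF2 (chr11:2129112-2149603), GENCODE v29 annotates INS-IGF2, a read-through from the insulin gene, and a second gene model that it also names IGF2 (ENSG00000284779), and all 3 have rows in the table. The coding sequence of the transcript IGF2-205, 540 bases, lies entirely (100%) within exons of INS-IGF2 transcripts. Of the distinct stretches of 100 bases in the 8 transcripts of IGF2, 19% also occur in the 2 transcripts of INS-IGF2, and 78.9% of those of INS-IGF2 occur in IGF2. The next 2 stretches, both on the minus strand of GRCh38, show what a read can and cannot tell apart between IGF2 and INS-IGF2. INS-IGF2 also shares exonic bases with the insulin gene INS on its strand, and INS was left out of this comparison. The label "alone" below therefore holds against IGF2 only. The first stretch is the start of the IGF2 coding sequence, chr11:2135464-2135523, found in both IGF2 and INS-IGF2. The second is coding sequence of INS-IGF2 from the insulin exon, chr11:2160912-2160971, found in no IGF2 transcript:
IGF2 and INS-IGF2: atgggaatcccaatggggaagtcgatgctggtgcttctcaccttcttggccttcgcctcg
INS-IGF2 alone: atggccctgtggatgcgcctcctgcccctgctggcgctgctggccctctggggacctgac
How the authors' counting split reads among these rows is not given in the sources used here, so each row is uncertain on its own.

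INS-IGF2 took most of the counts of the 3 rows in every library, 67.7% to 83.0% with a median of 74.5%. The IGF2 row took 4.82% to 11.4% and the second IGF2 model 8.57% to 23.6%. INS-IGF2 stood at 1833, 1705 and 1690 CPM at 0 µM and at 1698, 1004 and 1159 CPM at 1000 µM. Replicates 2 and 3 at 1000 µM lay below every control while replicate 1 did not, and the log2 change was -0.44 ± 0.23 (adjusted p = 0.138). With the mitochondrial share as a covariate, chosen after seeing the data, it was -0.60 ± 0.14 and passed (adjusted p = 0.00223), in a fit that called 43.6% of all genes. Against 0.01, 0.1 and 1 µM together INS-IGF2 was lower by -0.59 ± 0.19 (adjusted p = 0.0285). The 3 rows summed into 1 feature gave -0.34 ± 0.26 at 1000 µM against 0 µM (adjusted p = 0.302) and an adjusted p of 0.228 over the 7 groups.

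The second IGF2 model spread the most, from 168 to 997 CPM. Its 3 highest libraries, 1 µM replicate 3 (997 CPM), 10 µM replicate 1 (767 CPM) and 0.01 µM replicate 1 (666 CPM), were also the 3 libraries with the highest mitochondrial shares of 14.2%, 11.3% and 11.7%. In the fit with that share as a covariate, its own term was called for 8.55% of all genes. Per SD of the share over the 21 libraries (2.24 percentage points), the level was higher by 0.56 ± 0.07 log2 units for the second IGF2 model (adjusted p = 1.6e-04), by 0.25 ± 0.04 for INS-IGF2 (adjusted p = 0.00342) and by 0.17 ± 0.09 for the IGF2 row, which did not pass (adjusted p = 0.265). In that fit the changes at 1000 µM against 0 µM were -0.16 ± 0.29 for the IGF2 row (adjusted p = 0.675) and -0.40 ± 0.21 for the second model (adjusted p = 0.130).

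**Figure D3:**
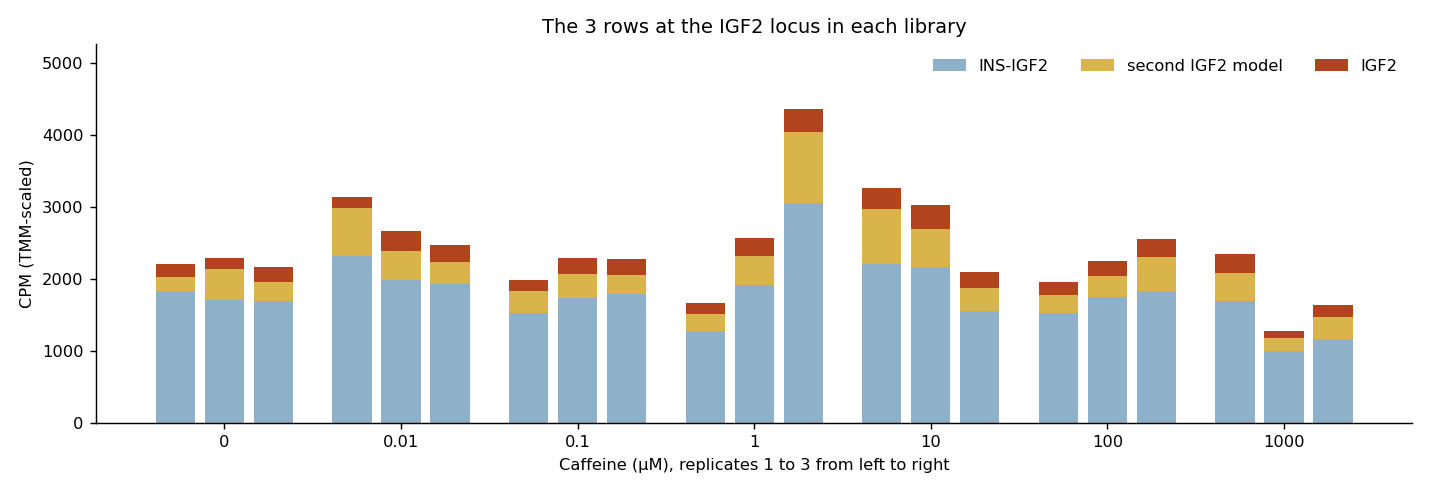
CPM (y axis, stacked, linear, from 0) of the 3 rows at the IGF2 locus in each library, grouped by caffeine dose in µM (x axis). INS-IGF2 forms most of every bar, the sum runs from 1275 CPM (1000 µM replicate 2) to 4359 CPM (1 µM replicate 3), and the 3 replicates at 1 µM alone run from 1668 to 4359 CPM.

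Other ligands and binding proteins were low, apart from IGFBP7. IGF1 held at most 1 count and 0 in 17 libraries, and IGFBP5 held at most 1 count and 0 in 20 libraries. The listed gene INS matched no row of the count table by symbol, so it has no level here. IGFBP7, a related secreted protein, held 209 to 339 counts per library. At 0 µM it stood at 5.00 ± 0.134 CPM per kb, close to IRS1 at 5.01 ± 0.479. H19, the imprinted non-coding RNA beside IGF2, held 6 to 23 counts, against 4222 to 10539 for the IGF2 row.

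A wider set of 74 pathway genes in 6 lists was described beside the members. Of these, 70 had a row and 60 passed the filter on low counts. At 1000 µM against 0 µM, 23 of the 60 rose, 9 fell and 28 did not pass, where 41.2% of all genes were called, and their median log2 change was 0.20 against -0.03 over all genes tested. Without 1000 µM replicate 3 the count of calls was 21 in place of 32. With 0.01, 0.1 and 1 µM as the reference 26 genes were called, 17 as higher and 9 as lower. Of the 32 called against 0 µM, 19 (all with the same sign) were also called against those doses. The counts per list below stand beside 20.6% of all genes called higher and 20.6% called lower at 1000 µM against 0 µM. No list was tested against these shares. The genes named below are those of each list with the largest called changes and a mean of at least 1 CPM.

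Around the receptors, 7 of 13 tested adaptors and docking proteins rose and 1 fell. SOS1, the exchange factor that activates RAS downstream of GRB2, stood at 84.5, 89.4 and 95.5 CPM at 0 µM and at 485, 367 and 526 CPM at 1000 µM. The groups lay far apart, and the log2 change was 2.35 ± 0.18 (adjusted p = 7.0e-08), second in size to IGFBP1 among the members and lists tested. SOS1 was also the only gene of the lists called at 100 µM, where 6.02% of all genes were, with 0.95 ± 0.17 (adjusted p = 0.0128). Its libraries there held 150 to 204 CPM and overlapped those at 0.01 µM (121 to 170 CPM) and 10 µM (134 to 181 CPM). They lay above those at 0.1 µM (90.6 to 127 CPM) and 1 µM (108 to 145 CPM). At 0.01 µM 6 of the 60 list genes were called, where 4.95% of all genes were. GRB10, an adaptor that binds INSR and IGF1R and restrains their signalling, rose from 6.52, 5.38 and 6.41 CPM to 16.8, 13.8 and 13.5 CPM, by 1.27 ± 0.10 (adjusted p = 1.0e-07). CBL, a ubiquitin ligase of receptor kinases, rose by 1.01 ± 0.14 (adjusted p = 2.7e-05) and GAB1, a docking protein for PI3-kinase, by 0.82 ± 0.17 (adjusted p = 0.00111). GAB1 was called at 10 µM as well (0.85 ± 0.17, adjusted p = 0.00475), and against 0.01, 0.1 and 1 µM together its change at 1000 µM was 0.23 ± 0.14 (adjusted p = 0.224). Reads of CBL and of MCAM cannot be told apart where their exons overlap on opposite strands, unless counting used strand.

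In the list of the PI3K-AKT core 6 of 15 tested genes rose and 2 fell. PIK3CA, the catalytic subunit, rose by 0.73 ± 0.15 (adjusted p = 8.5e-04), PDPK1, the kinase that phosphorylates AKT, by 0.68 ± 0.11 (adjusted p = 8.3e-05), and TBC1D4, an AKT substrate in glucose transporter traffic, by 0.68 ± 0.14 (adjusted p = 8.9e-04). PIK3R2, a regulatory subunit, fell by 0.74 ± 0.24 on the log2 scale (adjusted p = 0.0192). AKT1 and AKT2 themselves had log2 changes of 0.07 ± 0.09 (adjusted p = 0.555) and -0.07 ± 0.17 (adjusted p = 0.782), and were picked after their values were seen. PIK3R2 shares exonic bases with another gene model on its strand, PIK3CA with KCNMB3 on the opposite strand, and PDPK1 has near-identical pseudogene copies, so these 3 rows are uncertain.

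**Figure D4:**
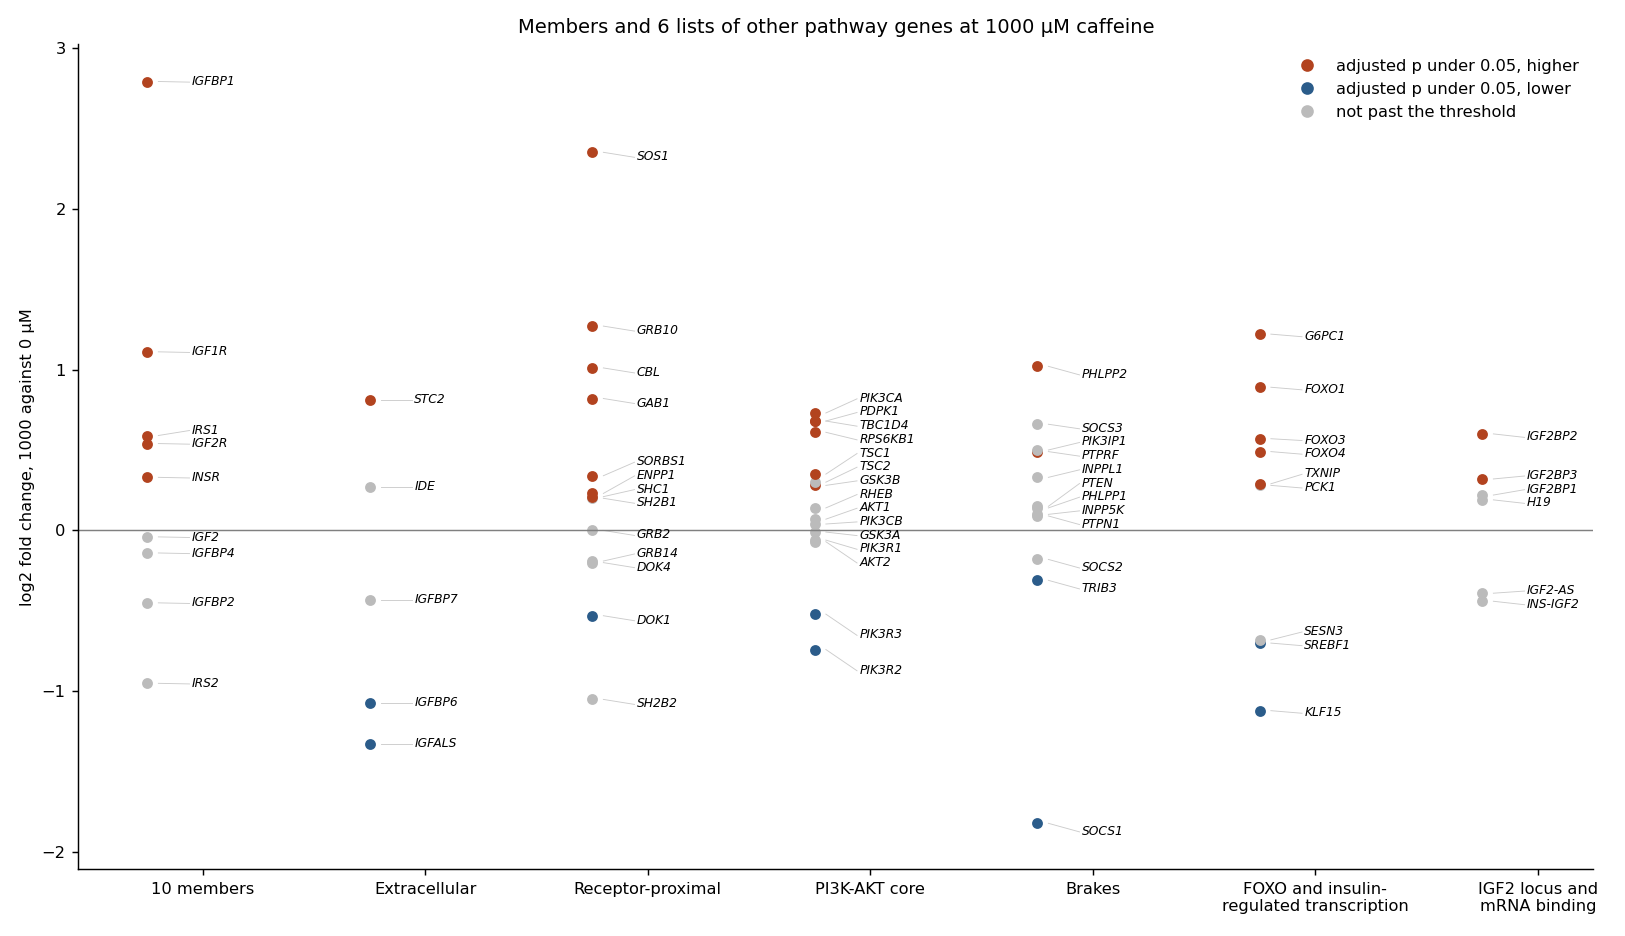
Log2 fold change at 1000 µM against 0 µM (y axis) of each tested gene, in columns for the 10 members and the 6 lists (x axis, no scale). Each point is 1 gene, red for called higher, blue for called lower, grey for not called. IGFBP1 (2.79) and SOS1 (2.35) are the highest points and SOCS1 (-1.82) is the lowest.

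Among the brakes, which are phosphatases and other inhibitors of the pathway, 2 of 12 rose and 2 fell, where 41.2% of all genes were called. SOCS1, a suppressor of cytokine and insulin signalling, fell from 5.72, 5.28 and 4.66 CPM at 0 µM to 1.35, 1.21 and 1.90 CPM at 1000 µM. All 3 libraries at 1000 µM lay below the controls, with a log2 change of -1.82 ± 0.23 (adjusted p = 9.8e-06). PHLPP2, a phosphatase of AKT, rose by 1.02 ± 0.13 (adjusted p = 1.5e-05) and PTPRF, a receptor phosphatase, by 0.49 ± 0.12 (adjusted p = 0.00446). TRIB3, a pseudokinase that binds AKT, fell by 0.31 ± 0.11 on the log2 scale (adjusted p = 0.0339). PTPRF and TRIB3 were not called with 0.01, 0.1 and 1 µM as the reference (adjusted p = 0.366 and 0.487). PHLPP2 shares exonic bases with MARVELD3 on the opposite strand.

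FOXO factors and genes under insulin control changed in both directions, with 5 of 9 tested higher and 2 lower. FOXO1, which AKT keeps out of the nucleus and which activates IGFBP1, stood at 15.1, 13.5 and 16.0 CPM at 0 µM and at 31.1, 22.2 and 29.6 CPM at 1000 µM. These groups did not overlap, and the log2 change was 0.89 ± 0.18 (adjusted p = 7.2e-04). Libraries at 1 µM reached 27.3 CPM and so overlapped those at 1000 µM. Against 0.01, 0.1 and 1 µM together the change of FOXO1 at 1000 µM was 0.49 ± 0.14 (adjusted p = 0.0133). Against 0 µM FOXO3 rose by 0.57 ± 0.10 (adjusted p = 1.7e-04) and FOXO4 by 0.49 ± 0.13 (adjusted p = 0.00584). SREBF1, a lipogenic factor that insulin induces in liver, fell from 120, 125 and 117 CPM to 87.2, 62.7 and 72.3 CPM, by 0.70 ± 0.15 on the log2 scale (adjusted p = 9.9e-04). FOXO1 shares exonic bases with LINC00598 on its strand, and SREBF1 with RAI1 on the opposite strand.

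Outside the cell, 1 of 5 tested genes rose and 2 fell. STC2, a secreted inhibitor of the IGFBP protease PAPP-A, rose from 104, 92.2 and 89.5 CPM to 163, 176 and 161 CPM, by 0.81 ± 0.08 (adjusted p = 9.9e-07). PAPPA, the gene of that protease, held only 0 to 13 counts per library and was not tested. IGFALS, the subunit that holds IGFs in the large circulating complex, was low, at 2.01, 2.45 and 2.23 CPM in the controls and 0.821, 1.03 and 0.793 CPM at 1000 µM. Its log2 change was -1.33 ± 0.20 (adjusted p = 6.6e-05), and the groups did not overlap. Of 6 tested genes of the IGF2 locus and the IGF2 mRNA-binding proteins 2 rose and none fell, where 41.2% of all genes were called. These were IGF2BP2 by 0.60 ± 0.18 (adjusted p = 0.0121) and IGF2BP3 by 0.32 ± 0.13 (adjusted p = 0.0478). Neither of these was called with 0.01, 0.1 and 1 µM as the reference (adjusted p = 0.158 and 0.844).

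The genes whose pattern was most like that of IGFBP1 and IGF1R were ranked by Pearson's r of log2 CPM over the 21 libraries, among 12436 tested genes with a symbol and a mean of at least 1 CPM. The libraries share doses, so r is a description. For IGFBP1 they included FST (0.984), the activin-binding protein follistatin, and PLIN2 (0.981), a coat protein of lipid droplets. FST stood at 18.4 ± 1.21 CPM at 0 µM and 77.8 ± 13.6 at 1000 µM (SD, n = 3). PLIN2 stood at 384 ± 19.8 CPM at 0 µM, 414 ± 13.1 at 100 µM and 706 ± 44.4 at 1000 µM. Without the 1000 µM libraries, over 18, r with IGFBP1 was 0.869 for FST and 0.817 for PLIN2. For IGF1R the closest were AGO2 (0.977), the slicer of small RNA silencing, NBPF1 (0.968), of a multigene family whose counts are uncertain, and SYNJ2 (0.967), a phosphoinositide phosphatase. AGO2 stood at 35.5 ± 0.665, 44.8 ± 2.69 and 89.4 ± 5.46 CPM at 0, 100 and 1000 µM, and without the 1000 µM libraries r was 0.882 for AGO2, 0.842 for NBPF1 and 0.823 for SYNJ2.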

How the data were processed

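The authors deposited one gene table of raw counts, in whole numbers and not normalized. The submitters' processing notes name HISAT2, DESeq2 and GRCh38, with no role or version, and the counting program, the annotation and the use of strand are not given in the sources used here. Per the labels' protocols, RNA was extracted with Trizol and selected on poly(dT) beads before cDNA synthesis. The table has 42 per-sample columns, of which 21 match no label here and were not used. Floors cover counting error only, since molecular identifiers are not mentioned.

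From the deposited counts, edgeR 4.0.16 (R 4.3.3) was run with TMM scaling and its expression filter at a minimum count of 10, in one fit over 21 samples and 7 groups with 14 residual degrees of freedom. The SE is the log2 change divided by the square root of F. Symbols came from a gene name table by Ensembl ID, and positions, exon lengths and overlaps from GENCODE v29 (GRCh38), which may differ from the authors' annotation. Python 3.11.15, pandas 2.3.3 and matplotlib 3.10.9 joined and drew the tables. A chi-square per gene between replicates of 5.46 to 207 left no pair that could be 1 library deposited again. On simulated data for 1000 µM against 0 µM the fit recovered 21.3% of 197 genes changed 1.5-fold, 61.6% of 198 changed 2-fold and 92.9% of 197 changed 4-fold. The changed genes were few there, 197 of 17206 at 1.5-fold, whereas the data called 41.2% of all genes. The adjusted threshold depends on that share, so these recoveries do not give the sensitivity of the real comparison.

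All members are named. Of each list, up to 4 called genes at 1000 µM against 0 µM with the largest change and a mean of at least 1 CPM are named, and IGF1, IGFBP5, IGFBP7, H19 and INS-IGF2 are given for their level. The level of PAPPA was added after its values were seen. For the 2 members with the smallest p over the 7 groups, the 3 genes most correlated with each were picked, and 1 of them is not reported here. Members and lists were chosen with earlier results of these data known. Alternatives were DESeq2 1.42.0, relative log expression scaling, no filter, the replicate number as a block, a stricter threshold, fits on 6 or 18 samples, other reference doses, the linear dose and leaving out each library. Added after seeing the data were the mitochondrial share as a covariate, the sum of the IGF2 locus rows and every pair of doses.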

Additional observations from a re-analysis of the deposited data

How the results depend on the processing

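For single members the tally covers the log2 changes at 1000 µM against 0 µM and the slopes, not the other comparisons. Of these values under the alternatives, 363 kept their direction and side of the threshold, 20 lost the call, 1 gained it and 13 changed sign. Of the counts of calls, 143 stayed within 1.5 times of the value first given and 23 moved by more. The calls of IGFBP1 and IGF1R at 1000 µM against 0 µM held under every alternative run, with log2 changes of 2.72 to 3.07 and 0.79 to 1.23. Under DESeq2 the members called were 2 at 0.01 µM, 1 each at 0.1 µM and at 1 µM, and 5 for 1000 µM against 100 µM. At an adjusted p under 0.01, edgeR called 0 members at 10 µM, 2 over the 7 groups and 20 pathway genes at 1000 µM. With 0.1 µM as the reference, 2 members and 20 pathway genes were called at 1000 µM, and with 0.01, 0.1 and 1 µM, 2 members. Over the 18 treated samples alone, 2 members were called across groups, and without 1000 µM 0 were, across groups or by slope. Leaving out each library in turn gave against 0 µM a range of 0 to 0 members for 0.01 and for 100 µM, 0 to 1 for 0.1 µM (IGF2R without 0.1 µM replicate 3), 0 to 1 for 1 µM (IGFBP1 without 1 µM replicate 1), 0 to 4 for 10 µM and 4 to 6 for 1000 µM, and otherwise 2 to 4 for 1000 µM against 100 µM, 2 to 5 over the 7 groups, 2 to 3 by slope, and 21 to 31 pathway genes. Values that changed sign, none of them called, were log2 changes at 1000 µM of IGFBP4 with 0.1 µM (0.08) or with 0.01, 0.1 and 1 µM (0.12) as the reference, of IGFBP2 without 0 µM replicate 1 (0.06, in a range of -0.69 to 0.06 over libraries left out), and of IGF2 without 0 µM replicate 3 (0.09) or 1000 µM replicate 2 (0.26, in a range of -0.41 to 0.26). The others were slopes over the treated samples of IGF2 (-0.03), IGFBP2 (0.02) and IGFBP4 (0.03), without 1000 µM of INSR (-0.02) and IGFBP2 (0.02), on the linear dose of IGF2 (-0.32 per 1000 µM) and IGFBP4 (0.08 per 1000 µM), and of IGFBP2 without 0 µM replicate 1 (0.04). The cause of these moves was not tested. Replicate numbers did not pair samples: over 63 pairs with the same number the correlation of deviations ran from -0.44 to 0.25, 11 were over 0.1, and 5 of 21 samples correlated best with their own number. The replicate block changed no count of members and gave 29 pathway genes in place of 32. Depth limits IRS2, IGFBP2 and IGFBP3, all at 33 counts or fewer per library.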

Other observations

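The wider pathway genes were called at 10 µM more often as higher than as lower, with 16 of 60 higher and 3 lower where 11.3% of all genes were higher and 10.7% lower. Those calls are against 0 µM, and 10 µM against 0.01, 0.1 or 1 µM called 0% of genes. The 10 µM and 1000 µM comparisons share the same controls, so the values stand side by side. CBL, the ubiquitin ligase, changed by 0.58 ± 0.14 at 10 µM (adjusted p = 0.00851, edgeR) and 1.01 ± 0.14 at 1000 µM, and PDPK1 by 0.49 ± 0.11 (adjusted p = 0.00542) and 0.68 ± 0.11. STC2 and GRB10, in contrast, held log2 changes of 0.07 ± 0.08 (adjusted p = 0.546) and 0.02 ± 0.10 (adjusted p = 0.918) at 10 µM, beside 0.81 ± 0.08 and 1.27 ± 0.10 at 1000 µM. Against 100 µM, the 1000 µM libraries were higher for 12 of 60 pathway genes and lower for 4, where 8.15% and 6.55% of all genes were. GRB10 changed by 1.06 ± 0.10 there (adjusted p = 2.0e-06), SOS1 by 1.40 ± 0.18 (adjusted p = 3.6e-05) and SOCS1 by -1.19 ± 0.23 (adjusted p = 0.00183).

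Of 3 called genes at a mean below 1 CPM, named after their values were seen, G6PC1, the last enzyme of glucose release from liver, stood at 0.435, 0.515 and 0.383 CPM at 0 µM and at 0.821, 1.13 and 1.17 CPM at 1000 µM. The groups did not overlap, and the log2 change was 1.22 ± 0.24 (adjusted p = 6.7e-04, edgeR). KLF15, a factor of fasting metabolism, and IGFBP6 had log2 changes of -1.12 and -1.07.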
